A study of Mus musculus with 20 samples.

Results

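The transcripts of 57 splicing factor genes were followed across 20 expression arrays of MIN6 cells, a mouse insulin-secreting beta cell line. The genes were taken by symbol: 9 SR genes (Srsf), 18 hnRNP genes (Hnrnp) and 30 genes of the core spliceosome, of which 8 were Snrp, 9 Sf3a or Sf3b, 3 U2af and 10 Prpf. They were chosen from the 12393 genes that the array annotation pairs with a probe set of their own, without use of any measured value. Cells grown at 22.7 or 5.5 mM glucose were either left untreated or exposed to human amylin (islet amyloid polypeptide, a hormone that beta cells release with insulin) at 1, 10 or 20 µM for 2, 12 or 24 h. Each of the 20 conditions was measured on 1 array, so each glucose level had 10 arrays, and the untreated array of a level carried no time. Effects were therefore read from pairs of arrays matched on everything but the factor compared, 10 pairs for glucose and 6 pairs for each time or dose step. Nothing in the labels says that arrays came from separate cultures, and p-values measure the spread between these arrays, which may be technical.

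Pre-mRNA splicing is carried out by the spliceosome, which is built on each intron from small nuclear RNAs and proteins. The Snrp genes encode Sm proteins, which form a ring on the small nuclear RNAs, and particle-specific proteins. SF3 and U2AF proteins act at the branch point and the 3′ splice site, and many Prpf proteins belong to the larger particles that complete and activate the assembled machine. SR proteins bind exonic enhancers and favour the use of nearby splice sites, whereas many hnRNP proteins bind introns or exons and often oppose them. The balance between these classes is known to shape alternative exon choice, and several SR and hnRNP genes regulate their own transcripts through splicing and decay.

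Values are log2 signals, and a difference of 1 is a 2-fold change. Levels were compared only within a probe set, since probe sets differ in affinity. The 57 genes had 141 probe sets, and each gene was represented by the one of highest mean. The 40% of genes with the lowest mean were left out, and 56 of the 57 members remained among the 7436 genes tested. The exception was Prpf39, with a mean of 6.29. Mean signals ran from 7.93 (Srsf10) to 11.17 (Srsf5) in the SR class, from 7.45 (Hnrnph3) to 11.89 (Hnrnpdl) in the hnRNP class and, among the 29 tested core genes, from 7.30 (Snrpn) to 11.41 (U2af2). The median SD of a member over the 20 arrays was 0.268 for SR genes, 0.27 for hnRNP genes and 0.194 for core genes, against 0.194 for all genes tested. The most variable members were Hnrnph2 with an SD of 0.551, Snrpd3 with 0.49 and Srsf5 with 0.489.

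In the beta cell marker list, 10 of the 10 genes present on the arrays stood above the filter, Ins2 between 14.5 and 14.78 and Iapp between 13.44 and 13.94. None of 4 acinar and 7 immune and endothelial markers did so, while 3 of 10 fibroblast markers, 2 of 4 duct markers and 2 of 4 other islet hormones did. Arrays at 22.7 mM had a larger 3′ minus 5′ signal of actin, a measure of RNA quality, with 1.828 ± 0.43 (SD, n = 10) against 1.224 ± 0.24 (SD, n = 10) at 5.5 mM. It was larger in 10 of 10 pairs, and the same measure for Gapdh was larger in 9 of 10 pairs (1.396 ± 0.253 against 0.947 ± 0.154). The part of RNA quality in the glucose differences was not tested beyond the fits that carry these measures as a covariate. Scanner descriptions of 18 arrays gave 4 scan days, and the other 2 arrays (22.7 mM with 1 µM for 12 h, and 5.5 mM with 10 µM for 24 h) had none here. These 2 arrays stood apart from the rest, with a mean correlation to the other arrays of 0.972 and 0.962 against 0.986 or more, and results that rest on them are given with and without them.

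Relative to each gene's own mean over the arrays, the hnRNP genes were lowest on those 2 arrays. Their median deviation was -0.513 at 5.5 mM, 10 µM and 24 h and -0.484 at 22.7 mM, 1 µM and 12 h, with 16 and 15 of 18 genes below their own mean. On the other 18 arrays the hnRNP median lay between -0.181 and 0.256. Core genes showed the same order with smaller values, -0.32 and -0.127 against -0.084 to 0.179. The SR medians of -0.166 and -0.139 on these 2 arrays lay inside the range of the other 18, from -0.228 to 0.273. Even so, 8 and 7 of 9 SR genes were below their own mean there. Among the 10 arrays at 5.5 mM, -0.166 was the lowest SR median, with -0.03 next. Over all genes tested, the medians of the 2 arrays were -0.106 and -0.039, against -0.032 to 0.08. Marker lists differed on the same arrays: the 2 arrays exceeded the other 18 by 0.65 for fibroblast, 0.61 for acinar, 0.53 for immune and endothelial and 0.46 for other islet hormone markers, and differed by -0.02 for duct and -0.15 for beta cell markers. No acinar, immune or endothelial marker stood above the filter, so those shifts are of signals near the floor, and their part in the low hnRNP signal was not tested.

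**Figure D1:**
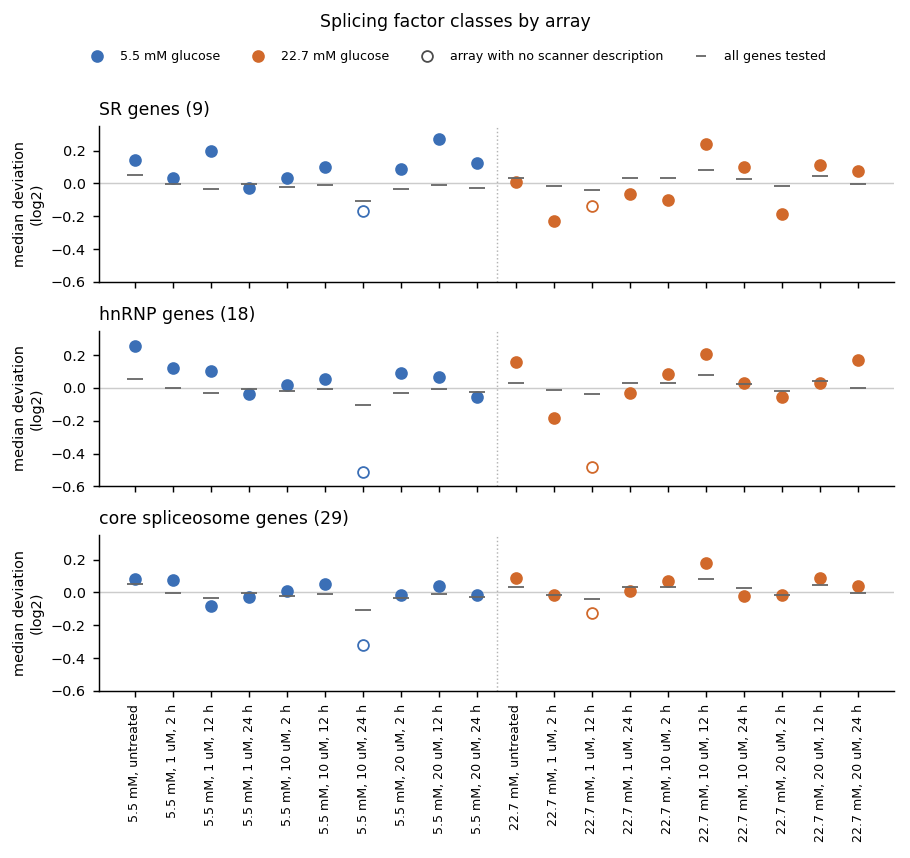
Median deviation (log2) of the SR, hnRNP and core genes from each gene's mean over the 20 arrays, one point per array, with the median of all genes tested as a dash. The arrays with no scanner description (open points) hold the lowest hnRNP medians, -0.513 and -0.484. The SR medians there lie within the range of the other arrays, though the one at 5.5 mM is the lowest of its level.

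Few splicing factor genes differed between the glucose levels by the limma test. At 22.7 against 5.5 mM glucose, 4 of the 56 tested members passed an adjusted p of 0.05, a share near that of all genes tested, of which 5.49% passed. Prpf19, Snrpe and Sf3a1 of the core class rose and the SR gene Srsf2 fell, against 3.63% of all genes higher and 1.86% lower, and no hnRNP gene passed. The arrays read RNA of whole cultures, in which fewer cells of a kind and less RNA per cell cannot be told apart. At an unadjusted p under 0.05 there were 20 of 56 members, 12 higher and 8 lower, against 22.6% of all genes (16.3% higher and 6.32% lower). The class medians were -0.075 for SR, -0.036 for hnRNP and 0.055 for core genes, with 0.037 for all genes. The SR and hnRNP signs were not stable: the medians were 0.06 and 0.079 with the actin covariate, 0.188 and 0.25 with the Gapdh covariate (all genes 0.087), and 0.019 and -0.0051 with scan day as a block. The core median stayed positive in these fits, at 0.066, 0.163 and 0.067. Without the 2 arrays that stood apart, 8 members passed, 3 higher and 5 lower (all genes 9.99%, with 6.04% higher and 3.95% lower). With scan day as a block, over the 18 arrays that had one, 8 members passed too (all genes 14.7%). With the actin measure as a covariate no member passed, nor did any gene (0.0%, with 11.6% at an unadjusted p under 0.05), and with the Gapdh measure 2 members did (all genes 8.18%).

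Prpf19, the ubiquitin ligase of the Prp19 complex that joins the spliceosome at its activation, was higher at 22.7 mM in 10 of 10 pairs. Its lowest, median and highest signals were 10.70, 10.90 and 11.26 at 22.7 mM against 9.93, 10.76 and 11.09 at 5.5 mM, so the groups overlapped. The mean difference was 0.31 (SE 0.078, adjusted p = 0.0332), a 1.24-fold rise, and it was 0.21 (adjusted p = 0.0318) without the 2 arrays. Both other probe sets of Prpf19 were also higher, by 0.27 and 0.19.

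Snrpe, the E protein of the Sm ring, was higher in 9 of 10 pairs. Its signals ran from 10.51 through a median of 10.71 to 11.05 at 22.7 mM and from 10.20 through 10.43 to 10.75 at 5.5 mM. The difference was 0.28 (SE 0.069, adjusted p = 0.0294), or 1.22-fold, and it stayed within 0.25 to 0.29 with either covariate, where the adjusted p was 0.405 for actin and 0.199 for Gapdh. Sf3a1, a subunit of the SF3a complex at the branch point, was higher in 10 of 10 pairs by 0.24 (SE 0.068, adjusted p = 0.0473), or 1.18-fold. Its signals were 8.83, 9.07 and 9.29 (lowest, median, highest) at 22.7 mM and 8.45, 8.83 and 9.01 at 5.5 mM, and 0.22 (adjusted p = 0.0518) was left without the 2 arrays.

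Srsf2, an SR protein of nuclear speckles that binds exonic enhancers, was lower at 22.7 mM in 9 of 10 pairs. The arrays at 22.7 mM gave 9.81, 10.05 and 10.36 (lowest, median, highest), and those at 5.5 mM 10.08, 10.44 and 10.58. The exception was the pair with 10 µM for 24 h, whose array at 5.5 mM was among those that stood apart. Srsf2 fell by 0.30 (SE 0.081, adjusted p = 0.0413), to 0.81 of its signal at 5.5 mM, and the difference was -0.35 (adjusted p = 0.0066) without the 2 arrays and -0.17 (adjusted p = 0.654) with the actin covariate.

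Srsf5, another SR protein, had the largest glucose difference of any member. Its signals were 10.05, 11.06 and 11.21 at 22.7 mM and 10.32, 11.55 and 11.90 at 5.5 mM (lowest, median, highest), and 8 of 10 pairs were lower at 22.7 mM. The lowest value of each level lay on an array that stood apart. Over all arrays the difference of -0.54 (SE 0.16, adjusted p = 0.0546) missed the threshold, and without the 2 arrays it was -0.60 (adjusted p = 0.00271). Within the scan days that held arrays of both levels, not matched on dose and time, it was -0.56, -0.62 and -0.49. With scan day as a block it was -0.70 (adjusted p = 0.000405). With the Gapdh covariate the sign turned, to 0.15 (adjusted p = 0.624).

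**Figure D2:**
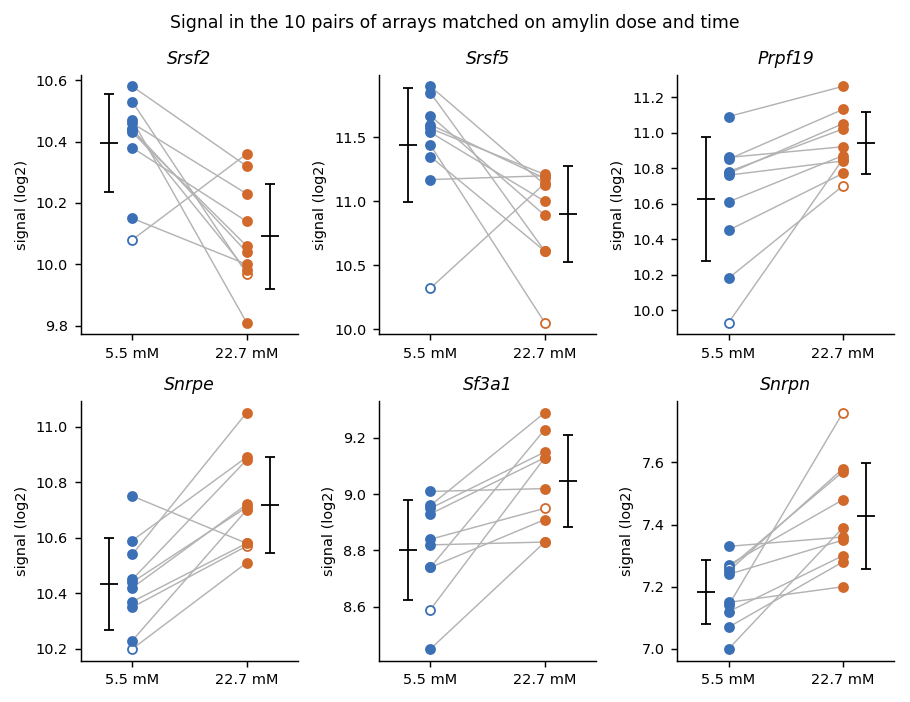
Signal (log2) of 6 members at 5.5 and 22.7 mM glucose, with a line joining the arrays of each of the 10 matched pairs, open points for the arrays with no scanner description, and bars for the mean and SD of each level. Prpf19, Sf3a1 and Snrpn rise along all 10 lines, Snrpe along 9, and Srsf2 drops along 9. Snrpn has a mean of 7.30, near the lowest mean kept.

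Other SR genes lay between these values. Srsf3 was lower in 8 of 10 pairs, by -0.21 (adjusted p = 0.164), while Srsf9 and Srsf4 were higher in 8 of 10 pairs, by 0.22 and 0.13 (adjusted p = 0.198 and 0.214). Among hnRNP genes, 8 of 18 were higher and 10 lower. Hnrnpa1, which often antagonises SR proteins at splice sites, gave -0.30 (adjusted p = 0.132), and -0.37 (adjusted p = 0.0224) without the 2 arrays. Hnrnpd, a binder of AU-rich elements, gave 0.30 (adjusted p = 0.185), and 0.26 (adjusted p = 0.0437) without them. In the SF3 family 8 of 9 genes were higher, the exception being Sf3b6, the branch point contact of the complex, at -0.24 (adjusted p = 0.0902). The Snrp family split 4 and 4, from Snrpd3 at -0.28 to Snrpe. Snrpn, an imprinted Sm protein gene, was higher in 10 of 10 pairs by 0.25 (adjusted p = 0.0507). Its only single-gene probe set had a mean of 7.30, near the lowest mean kept, 7.08. Brighter probe sets that it shares with Snurf, at means of 12.09 and 11.51, gave 0.0002 and 0.0015.

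Single pairs of arrays decided several of these calls. When each of the 20 arrays was left out in turn, 0 to 11 members passed, while 1.32% to 8.84% of all genes passed. The number of members was 0 in 10 of the 20 fits. With a term for each amylin condition, leaving out 1 array also takes its matched partner out of the glucose difference. The 20 fits thus stand for 10 pairs, each counted by both of its arrays. Prpf19 passed in 10 of the 20, Snrpe and Sf3a1 in 6 each, and Srsf2 in 2, with differences from 0.245 to 0.341, 0.258 to 0.335, 0.211 to 0.27 and -0.369 to -0.264. Leaving out either array of the pair with 10 µM for 24 h gave the 11, with 8.84% and 8.82% of all genes passing. The direction of these 4 genes was kept in all 20 fits. Of the 3 scan days that held arrays of both levels, Snrpe was higher at 22.7 mM on each, by 0.136, 0.409 and 0.236. Prpf19 gave -0.066, 0.477 and 0.07, Sf3a1 0.055, 0.03 and 0.58, and Srsf2 -0.394, -0.506 and -0.053. Arrays within a day were not matched on dose and time, so these values cannot show whether a glucose difference varied by scan day. On the day that gave -0.066 for Prpf19, 1 array at 22.7 mM (20 µM for 2 h) was set against 3 at 5.5 mM. Among those 3 was the untreated array, which held the highest Prpf19 signal of that level, 11.09.

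Many members held probe sets that disagreed, although the 3 of Prpf19 had the same sign and Snrpe and Sf3a1 each had only 1 above the filter. Of the 124 member probe sets above the filter, 17 passed when every probe set was tested on its own (8.12% of all probe sets), 13 of them lower and 4 higher at 22.7 mM (4.69% and 3.43% of all probe sets). The 13 lower ones belonged to 9 genes, and 12 of the 13 were not the probe set of highest mean. Among the 32 genes with several probe sets above the filter, 20 had probe sets of opposite sign, and the median spread between a gene's probe sets was 0.234. Whether genes outside the members disagree as often was not tested, so this is not shown to be particular to splicing factor genes.

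Srsf1, an SR protein that helps define exons, was the widest case. Probe set 1452430_s_at gave -0.97 (SE 0.17, adjusted p = 0.00492), with signals of 6.42, 7.02 and 7.63 at 22.7 mM and 7.0, 8.0 and 8.87 at 5.5 mM (lowest, median, highest). The other 5 probe sets of the gene lay between -0.16 and -0.009, and none passed. Srsf2 had 3 lower probe sets that passed, at -0.67, -0.66 and -0.30, and its remaining one gave -0.045. For Hnrnpu, a nuclear matrix and RNA-binding protein, 1450849_at gave -0.72 (adjusted p = 0.0157) against -0.13 for the probe set of highest mean. Hnrnpf, which binds runs of G, had -0.59 and -0.46 beside 0.028 and -0.0012. Hnrnpr (1452030_a_at, -0.67), Sf3a3 (1432488_a_at, -0.70) and Sf3b2 (1456040_at, -0.48) also had a low probe set beside a higher one of 0.0625, 0.091 and 0.0772. Hnrnpab (-0.64 and -0.47) and the kinase gene Prpf4b (1425497_a_at, -0.44) complete the 9.

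With the actin covariate, the differences of these 13 low probe sets went from a median of -0.64 to -0.17, all still below 0 and none passing, and their median SE went from 0.129 to 0.184. Actin itself differed with glucose in 10 of 10 pairs, so the fit does not separate the 2, and Gapdh was not fitted to single probe sets. Without the 2 arrays that stood apart all 13 passed, at -1.09 to -0.35, as did 8.01% of all probe sets on the lower side. Which transcripts or transcript ends each probe set reads was not settled from the files, so a lower signal of some isoforms at high glucose and a lower 5′ signal cannot be told apart here.

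**Figure D3:**
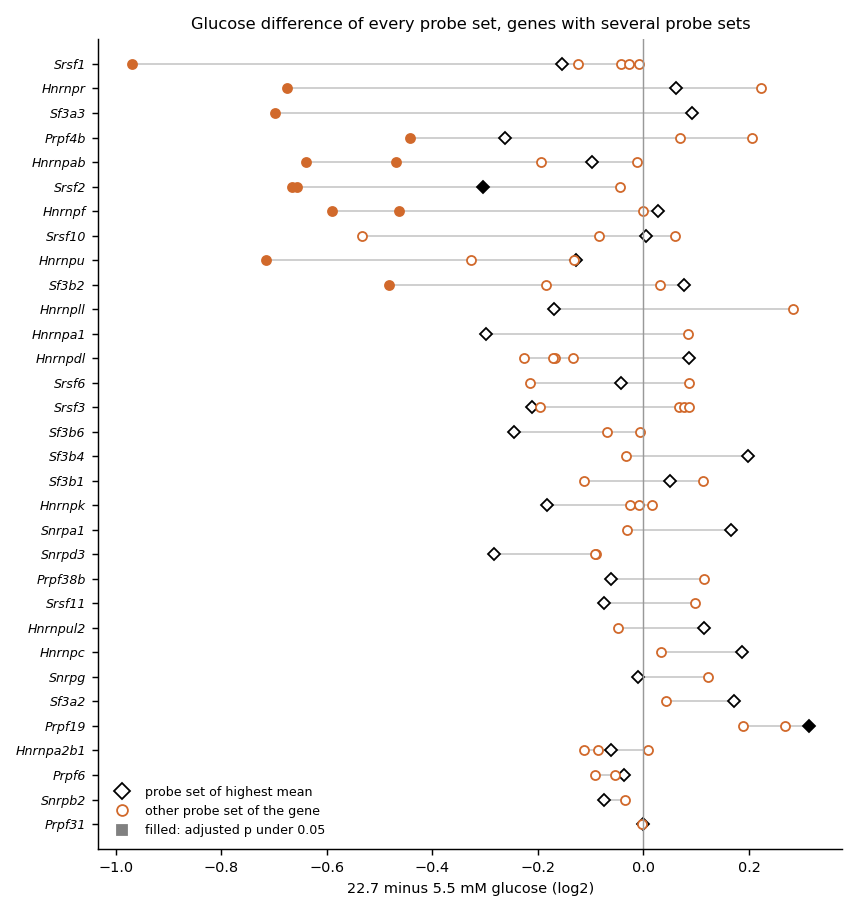
Difference between 22.7 and 5.5 mM glucose (log2) of every probe set above the filter in the 32 genes with several, diamonds for the probe set of highest mean, circles for the others, filled where the adjusted p is under 0.05. Filled circles to the left, down to -0.97 for Srsf1, sit beside diamonds near 0 for Srsf1, Hnrnpr, Sf3a3, Hnrnpf and Hnrnpu.

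On GRCm38.p6, Prpf19 lies at chr19:10895231-10909559, Sf3a1 at chr11:4160354-4182541, Snrpe at chr1:133603871-133610280 and Srsf2 at chr11:116849897-116853675. Promoter sequences of the 4 genes that passed are shown because they moved in different directions with glucose. The RefSeq promoter table (GRCm38.p6) held 71 promoters of 51 member genes, each from 250 bases before to 50 after a transcript start. The 150 bases before the start are printed 5′ to 3′ in this paragraph on the gene's strand, with capitals for matches to CCGGAAG (the core of ETS family sites), GGGCGG (GC box), CCAAT and TATAAA on either strand. They lie at chr19:10895081-10895230 (Prpf19, plus strand), chr11:4160204-4160353 (Sf3a1, plus strand), chr1:133610281-133610430 (Snrpe, minus strand) and chr11:116853095-116853244 (Srsf2, minus strand, from a start 581 bases inside the gene's outer end).
Prpf19: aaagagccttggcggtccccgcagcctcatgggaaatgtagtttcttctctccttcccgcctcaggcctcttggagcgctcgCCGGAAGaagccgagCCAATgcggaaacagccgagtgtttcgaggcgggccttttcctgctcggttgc
Sf3a1: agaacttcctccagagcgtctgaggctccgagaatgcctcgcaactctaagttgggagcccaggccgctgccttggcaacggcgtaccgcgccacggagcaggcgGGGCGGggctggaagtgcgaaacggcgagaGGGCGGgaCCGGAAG
Snrpe: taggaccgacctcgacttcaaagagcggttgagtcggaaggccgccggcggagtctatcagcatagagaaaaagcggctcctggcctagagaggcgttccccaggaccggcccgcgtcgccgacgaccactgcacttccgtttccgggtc
Srsf2: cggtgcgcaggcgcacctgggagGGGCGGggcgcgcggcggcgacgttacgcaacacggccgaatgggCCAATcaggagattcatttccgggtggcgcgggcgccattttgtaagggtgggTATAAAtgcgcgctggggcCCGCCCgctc

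Prpf19 and Sf3a1 each held a CCGGAAG, 68 and 7 bases before the start. Prpf19 also held a CCAAT, and Sf3a1 2 GC boxes. Srsf2 held a TATAAA 29 bases before its start, with a CCAAT and 2 GC boxes. The Snrpe window matched none of the 4 motifs. Over the whole table CCGGAAG was present in 33.8% of member promoters against 8.86% of all 32851 promoters, counting both strands. By gene it was found in 14 of 26 core, 2 of 16 hnRNP and 3 of 9 SR genes with a promoter. GGGCGG was present in 63.4% against 35.7%, CCAAT in 49.3% against 37.4% and TATAAA in 8.45% against 13.6%. The other 2 motifs searched, CACGTG and TGACGTCA, were present in 11.3% against 7.15% and 1.41% against 1.79%, and in none of the windows printed here. These matches are descriptions of the letters in the windows.

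No member passed between 12 and 2 h with amylin. Of the 9 SR genes 7 had a positive difference and 2 a negative one, with a median of 0.13, against -0.03 for hnRNP, -0.024 for core and 0.017 for all genes. The median per array was higher at 12 h in 6 of 6 matched pairs for SR genes, by 0.064 to 0.337, in 3 of 6 for hnRNP and in 4 of 6 for core genes, and the difference between classes was not tested. Of all genes 0.108% passed the limma test, and 9 members had an unadjusted p under 0.05 (all genes 9.31%). When all probe sets of a gene were averaged, the SR median became -0.012.

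Srsf11, an SR-related protein, had signals of 9.47, 9.73 and 10.07 at 2 h, 10.01, 10.27 and 10.49 at 12 h, and 9.78, 10.02 and 10.22 at 24 h (lowest, median and highest of 6 arrays). It was higher at 12 than at 2 h in 5 of 6 pairs, by 0.50 (SE 0.11, adjusted p = 0.0967), and its other probe set gave 0.40. Untreated arrays read 10.33 at 5.5 mM and 9.94 at 22.7 mM, inside or above the range at 2 h. Srsf10, a splicing regulator that turns into a repressor when dephosphorylated, was higher at 12 h in 5 of 6 pairs, by 0.37 (SE 0.17, adjusted p = 0.529). Its exception was the array at 22.7 mM, 1 µM and 12 h, at 6.86, when the other 5 arrays at 12 h read 8.04 to 8.84. Without the 2 arrays that stood apart both genes passed, Srsf11 at 0.53 (adjusted p = 0.0432) and Srsf10 at 0.58 (adjusted p = 0.0309), and 0.74% of all genes did. All 4 probe sets of Srsf10 were higher at 12 h, by 0.26 to 0.37. Srsf1 was higher in 6 of 6 pairs, by 0.27 (adjusted p = 0.674), and Srsf5 lower in 4 of 6, by -0.27 (adjusted p = 0.782).

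In the core class Prpf38b, a Prp38-related gene, was higher at 12 h in 6 of 6 pairs. The 6 arrays at 2 h read 8.36 to 8.54 and those at 12 h 8.64 to 8.86, with no overlap, and those at 24 h 8.45 to 8.67. The difference was 0.33 (SE 0.076, adjusted p = 0.0974), and 0.32 (adjusted p = 0.093) without the 2 arrays. Untreated arrays read 8.86 at 5.5 mM and 8.53 at 22.7 mM. Sf3a1 was higher in 6 of 6 pairs by 0.26 (adjusted p = 0.293), as was Hnrnpm by 0.31 (adjusted p = 0.429).

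Snrpd3, the D3 protein of the Sm ring, gave the largest time difference. Its signals were 9.24, 9.58 and 9.88 at 2 h, 7.74, 9.29 and 9.57 at 12 h and 8.61, 8.99 and 9.35 at 24 h (lowest, median, highest). At 24 against 2 h it was lower in 6 of 6 pairs, by -0.58 (SE 0.12, adjusted p = 0.1), and it passed at -0.50 (adjusted p = 0.0412) without the 2 arrays, when 0.444% of all genes passed. Left out in turn, 3 of 20 arrays brought it past the threshold. Its other 2 probe sets gave -0.056 and 0.019, so the difference rested on 1 of 3 probe sets. Over all arrays no member passed at 24 against 2 h (all genes 0.0538%), and 7 had an unadjusted p under 0.05 (all genes 8.66%). All 8 Snrp genes were lower at 24 h, by -0.58 to -0.019, with a median of -0.11, and 7 of 8 without the 2 arrays. The hnRNP median was -0.082 over all arrays and 0.031 without these 2, and the core median -0.055 and -0.015. The 3′ minus 5′ signal of actin was also lower at 24 h, by -0.293. Between 12 and 24 h no member passed (all genes 0.0%), and 3 of 56 had an unadjusted p under 0.05 (all genes 5.18%).

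**Figure D4:**
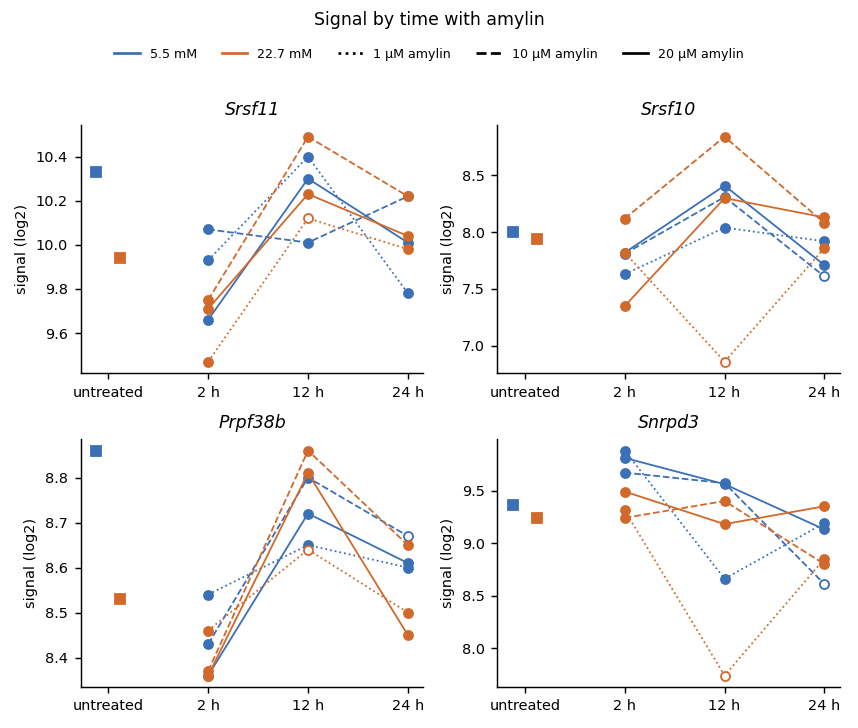
Signal (log2) of Srsf11, Srsf10, Prpf38b and Snrpd3 in untreated cells (squares) and after 2, 12 and 24 h with 1, 10 or 20 µM amylin at each glucose level, open points for the arrays with no scanner description. Prpf38b is higher at 12 than at 2 h along all 6 lines, and the open point of Srsf10 at 12 h lies at 6.86, below all others.

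Scan days bear on these steps. On the scan day that held 2 arrays at each time, the SR medians averaged -0.163 at 2 h, 0.186 at 12 h and 0.029 at 24 h. Both of its arrays at 2 h were at 22.7 mM and both at 12 h at 5.5 mM. On the other day with all times they averaged 0.035 (1 array), 0.178 (2 arrays) and 0.049 (3 arrays). There the array at 2 h was at 5.5 mM and both at 12 h were at 22.7 mM. Within a day, the step from 2 to 12 h therefore cannot be told apart from glucose. The step from 2 to 12 h could not be fitted with scan day as a block. For 24 against 2 h it could, over the 18 arrays with a scan day. There 40 of 56 members were positive, against 19 over all arrays without the block. Leaving out the 2 arrays with no block already gave 7 of 9 SR, 10 of 18 hnRNP and 13 of 29 core genes positive. In that order (all arrays, without the 2, with the block), the hnRNP median was -0.082, 0.031 and 0.14. The core median was -0.055, -0.015 and 0.043, and the SR median 0.052, 0.14 and 0.15. Of the 8 Snrp genes 8, 7 and 6 were negative. The turn was thus in part that of leaving out the 2 arrays. Snrpd3 was at -0.53 (adjusted p = 0.113). No member passed with the block (all genes 0.121%), and 11 had an unadjusted p under 0.05 (all genes 13.8%).

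Dose gave no call. At 20 against 1 µM none of the 56 members passed the limma test, nor did any gene (0.0%), and 5 members had an unadjusted p under 0.05 (all genes 2.37%), all higher at 20 µM (all genes 1.2%). The class medians were 0.11 for SR, 0.17 for hnRNP and 0.039 for core genes against 0.0009 for all genes, and 43 of 56 members were positive. Without the 2 arrays these medians were 0.062, 0.05 and 0.017. The hnRNP median was higher at 20 µM in 3 of 6 pairs, up to 0.512 in the pair at 22.7 mM and 12 h, whose array at 1 µM stood apart. The SR median was higher in 6 of 6 pairs, by 0.04 to 0.255, and with the Gapdh covariate the SR gene median was 0.0.

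Snrpd3 had the smallest p of the dose step, with 8.94 at 1 µM and 9.42 at 20 µM (means of 6 arrays), a difference of 0.48 (SE 0.12, adjusted p = 0.998) carried by 4 of 6 pairs. Signals of U2af1, which reads the AG of the 3′ splice site, differed by 0.31 (higher in 5 of 6 pairs) and those of Hnrnpa2b1 by 0.29 (6 of 6 pairs), both with an adjusted p of 0.998. The array at 22.7 mM, 1 µM and 12 h, which stood apart, held the lowest Hnrnpa2b1 signal, 10.01. The differences were 0.37 (Snrpd3), 0.25 (U2af1) and 0.18 (Hnrnpa2b1) without the 2 arrays. Of the 13 probe sets that were lower at 22.7 mM, 12 were higher at 20 µM, with a median of 0.33 from -0.024 to 0.63. They come from 9 genes and were picked from these same arrays. The array at 22.7 mM, 1 µM and 12 h enters both steps, so the dose values are no separate evidence. Of all member probe sets above the filter, 20 of 27 SR, 37 of 44 hnRNP and 39 of 53 core ones were higher at 20 µM. Without the 2 arrays these counts were 18, 32 and 33. The share over all probe sets is not given here, so the counts are not shown to be particular to the members. The 3′ minus 5′ signals of actin and Gapdh were lower at 20 than at 1 µM, by -0.125 and -0.206. At 10 against 1 µM no member passed either (all genes 0.0%), and 7 of 56 had an unadjusted p under 0.05 (all genes 2.8%). The change with dose at 24 h less that at 2 h gave no call (all genes 0.0%) and no member with an unadjusted p under 0.05 (all genes 1.3%).

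No member passed between amylin-treated and untreated cells, although 17 of the 18 hnRNP genes had a lower mean in treated cells. So did 8 of 9 SR and 22 of 29 core genes. The hnRNP median was -0.18, against -0.11 for SR, -0.098 for core and -0.059 for all genes. These medians were -0.12, 0.0082, -0.056 and -0.047 without the 2 arrays that stood apart. The actin 3′ minus 5′ signal of the untreated array was 2.404 at 22.7 mM, where treated arrays ran from 1.194 to 2.601, and 1.395 at 5.5 mM, where they ran from 0.978 to 1.775. With it as a covariate the hnRNP median was -0.26. By the limma test no gene passed at all (0.0%), and 3 members had an unadjusted p under 0.05 (all genes 5.63%). The comparison set 18 treated arrays against 2 untreated ones. Per treated array, the hnRNP median was below that of the untreated array of its level in 16 of 18 cases, and in 14 of 16 without the 2 arrays that stood apart. Core genes gave the same counts. The median of all genes tested was higher than in the untreated array in only 4 of 18 and 4 of 16 cases. These cases share the 2 untreated arrays and are not independent.

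Prpf19 read 11.09 and 11.26 in untreated cells and 9.93, 10.81 and 11.13 (lowest, median, highest) in treated cells. It was lower than the untreated array of its level in 18 of 18 cases, with a difference of -0.44 (SE 0.13, adjusted p = 0.776). Hnrnpr read 9.49 and 9.59 untreated and 8.63, 9.22 and 9.47 treated, lower in 18 of 18 cases, by -0.39 (SE 0.19, adjusted p = 0.776). Signals of Hnrnpf were 10.24 and 10.64 untreated and 8.84, 9.95 and 10.33 treated, a difference of -0.51 (SE 0.23, adjusted p = 0.776). Hnrnph2, its close relative, differed by -0.52, and by -0.33 without the 2 arrays. Both untreated arrays of Hnrnpr lay above all 18 treated ones, and those of Prpf19 overlapped the treated range only at 11.09.

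**Figure D5:**
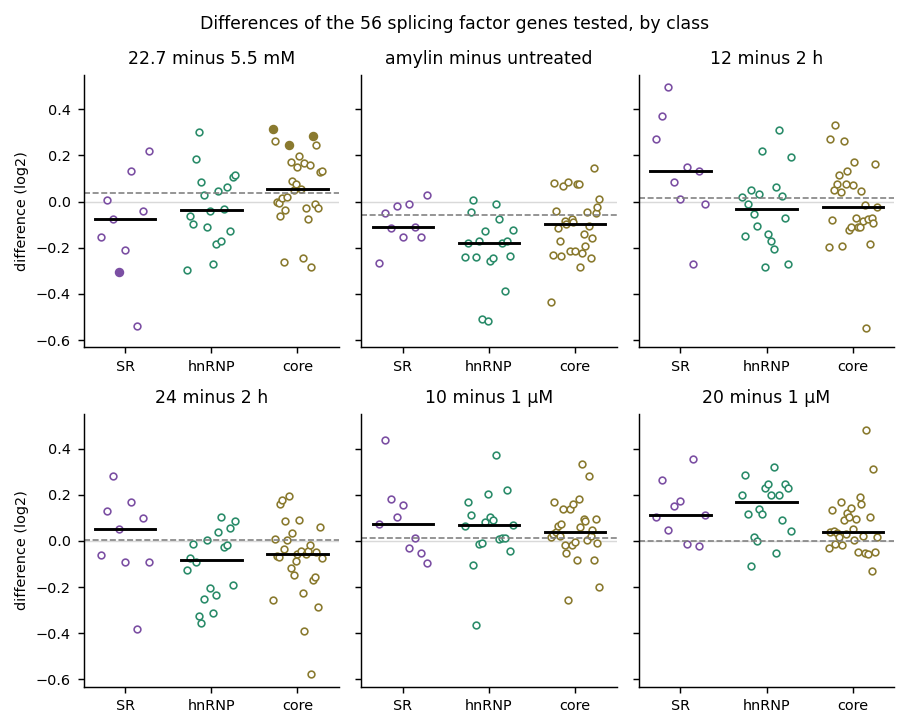
Differences (log2) of the 56 tested members in 6 comparisons, by class, filled where the adjusted p is under 0.05, with a black bar for the class median and a dashed line for the median of all genes tested. Filled points appear only at 22.7 against 5.5 mM, and the hnRNP median is lowest for amylin against untreated, at -0.18.

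The effects of time and dose were also fitted within each glucose level. At 24 against 2 h the class medians were 0.21 (SR), 0.05 (hnRNP) and -0.022 (core) at 22.7 mM and -0.18, -0.29 and -0.14 at 5.5 mM, with 0.019 and -0.02 for all genes. The difference between the levels passed for no member (all genes 0.0%), and 10 of 56 had an unadjusted p under 0.05 (all genes 10.7%). Without the 2 arrays the medians at 5.5 mM were -0.0015, -0.092 and -0.033, and the difference between levels had 8 of 56 with an unadjusted p under 0.05 (all genes 9.25%). The smallest p was that of Srsf1, with a difference between levels of 0.86 (SE 0.26, adjusted p = 0.447), and 0.55 (adjusted p = 0.41) without them. For 12 against 2 h no member passed in the difference between levels (all genes 0.0%), nor did any have an unadjusted p under 0.05 (all genes 1.59%), and without the 2 arrays 5 did (all genes 6.71%). Within 22.7 mM, Srsf11 was at 0.64 (adjusted p = 0.151) and within 5.5 mM at 0.35 (SE 0.15). Srsf10 passed within 22.7 mM without the 2 arrays, at 0.78 (adjusted p = 0.0367), as did 0.982% of all genes. Doses of 20 and 1 µM differed between levels for no member (all genes 0.0%), and 2 of 56 had an unadjusted p under 0.05 (all genes 4.55%). For 10 against 1 µM no member passed in the difference between levels either (all genes 0.0%), and 10 of 56 had an unadjusted p under 0.05 (all genes 15.1%). Hnrnph2 had the smallest p there, at 1.49 (SE 0.38, adjusted p = 0.294), and 0.77 (adjusted p = 0.721) without the 2 arrays.

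A wider list of 115 splicing regulators and spliceosome genes outside the symbol rule was set beside the members, and 87 of these were tested. It had 0 calls for glucose (all genes 5.49%), with 14 at an unadjusted p under 0.05 (all genes 22.6%) and a median of 0.06. Without the 2 arrays that stood apart it had 7 calls (all genes 9.99%). Of these 7, Esrp1, Ewsr1 and Mbnl1 were higher at 22.7 mM, and Tardbp, Pnn, Rbm39 and Cwc15 lower. At 12 against 2 h and at 24 against 2 h 1 gene each passed, in both cases Cirbp, the cold-inducible RNA-binding protein, which fell by 0.92 (adjusted p = 0.0185) and 0.96 (adjusted p = 0.0216) in 6 of 6 pairs. Of all genes 0.108% and 0.0538% passed in these steps. Without the 2 arrays 4 and 2 genes of the list passed in them (all genes 0.74% and 0.444%). Luc7l3, a protein that works with the 5′ splice site particle, was higher at 12 h in 6 of 6 pairs, by 0.67 (adjusted p = 0.0635), and passed at 0.75 (adjusted p = 0.0209) without the 2 arrays. Pnn, an SR-related protein, passed there too, at 0.56 (adjusted p = 0.0209) for 12 h and 0.52 (adjusted p = 0.0409) for 24 h, and so did the RNA helicase gene Ddx17 for 12 h at 0.40 (adjusted p = 0.0349). Rbm5 and the SR protein kinase Clk2 were also higher in 6 of 6 pairs, by 0.34 and 0.35, without passing. For 20 against 1 µM and for amylin against untreated the list had 0 calls (all genes 0.0% in both). At an unadjusted p under 0.05 it had 2 and 5 genes (all genes 2.37% and 5.63%). For amylin its median was -0.14, with 14 of 87 genes positive.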

How the data were processed

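RNA of MIN6 cells was measured on 20 Affymetrix MOE430A arrays. The deposited values are log2 signals that the authors made by RMA in affy 1.12.2 under R 2.4.0, per the submitters' processing notes. Whether all arrays went through a single run is not given in the sources used here. Scan days came from the scanner descriptions. The table held 22690 probe sets. Those with 1 gene were kept, each gene was taken by its probe set of highest mean, and the lowest 40% of genes were left out.

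Differences were fitted with limma 3.58.1 (lmFit and eBayes with a mean-variance trend) in R 4.3.3, with glucose and the 10 amylin conditions as terms. Adjusted p-values (Benjamini-Hochberg) cover all 7436 genes tested. A second fit crossed glucose with dose and time. The number of arrays limits precision. On simulated data, glucose changes of 0.3 and 0.6 were recovered in 50% and 98% of cases, and 24 against 2 h changes in 20% and 80%.

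Genes named were members with an adjusted p under 0.05, the 2 of smallest p per direction and class for glucose, amylin, 24 against 2 h and 20 against 1 µM, the extremes of level, and members with discordant probe sets. Of the wider list, those passing over all arrays are named. Genes named for the 12 h and between-level differences, and the other genes of the wider list, were chosen after their values were seen. Members, lists and alternatives were chosen with earlier results of these data known. Actin and Gapdh 3′ minus 5′ signals came from the control probe sets of the same table. Alternatives covered the filter, centring, probe sets, RNA quality covariates, scan day and left-out arrays. The Gapdh covariate, the probe sets tested singly with a covariate or without the 2 arrays, the crossed fit without those arrays and the probe sets of several genes were added after seeing the data.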

Additional observations from a re-analysis of the deposited data

Results flagged for a closer look

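On the array at 5.5 mM, 10 µM and 24 h, the median deviation of the hnRNP genes was -0.513 and that of the core genes -0.32, each far below the next of the 10 arrays at 5.5 mM. The gap to the nearest array was 0.596 and 0.585 of the whole range, above the limit of Dixon's test at the 95% level. Of 14 groups tested, chance flags about 1 in 20.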

How the results depend on the processing

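For glucose, 4 members passed over all arrays. The number was 2 with no filter on low values, 9 after quantile normalization was repeated, 2 from treated arrays alone and 8 without the 2 arrays that stood apart. It was 8 with scan day as a block, 0 with the actin covariate and 2 with the Gapdh covariate. With every probe set tested singly, 17 of 124 member probe sets passed, from 13 genes (8.12% of all probe sets). At 24 against 2 h the number of members passing was 1 without the 2 arrays (all genes 0.444%) and 1 with the Gapdh covariate. At 12 against 2 h it was 2 without the 2 arrays (all genes 0.74%) and 2 with the Gapdh covariate. Shares of all genes are not given here for these Gapdh counts, nor for no filter, repeated quantile normalization and treated arrays alone. With the Gapdh covariate the glucose medians were 0.188 (SR) and 0.163 (core), and the SR median at 20 against 1 µM was 0.0. The SR median at 12 against 2 h was -0.012 with the mean of all probe sets. Signs turned with the Gapdh covariate for glucose in Hnrnpa1 (0.124), Hnrnpll (0.019), Snrpd3 (0.038) and Srsf5 (0.154), and for amylin in Srsf9 (-0.066). With the actin covariate they turned for amylin in Hnrnpc (-0.006) and Srsf9 (-0.074), and after median centring in Hnrnpc (-0.026) and Srsf9 (-0.001). With the mean of all probe sets they turned in Hnrnpc for amylin (-0.056) and in Hnrnpll for glucose (0.058) and 24 against 2 h (-0.043). Srsf3 gave 0.01 at 24 against 2 h with scan day as a block, and Srsf9 0.005 at 12 against 2 h after repeated quantile normalization. The cause was not tested. With each array left out in turn, the numbers passing ranged from 0 to 11 for glucose, 0 to 5 at 24 against 2 h and 0 to 1 at 12 against 2 h. The 11 came with 8.84% and 8.82% of all genes passing. The 5 came without the array at 22.7 mM, 10 µM and 24 h, when 1.92% of all genes passed. At 12 against 2 h the 1 came with 0.39% to 0.524% of all genes passing. Differences ranged from -0.092 to 0.103 (Hnrnpc) and -0.026 to 0.087 (Srsf9) for amylin, from -0.084 to 0.06 for Srsf9 at 12 against 2 h, and at 20 against 1 µM from -0.144 to 0.027 (Snrpe), -0.051 to 0.023 (Srsf4) and -0.09 to 0.049 (Srsf6). Class medians ranged at 24 against 2 h from -0.057 to 0.147 (SR) and -0.191 to 0.043 (hnRNP), at 12 against 2 h from -0.13 to 0.062 (hnRNP) and -0.07 to 0.017 (core), and for glucose from -0.132 to 0.051 (hnRNP). Of the other settings, 222 of the class medians and counts kept their value within the replicate spread or 1.5 times, and 741 single gene results kept their direction and side of the threshold.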

Other observations

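Probe sets that list several genes were not used for the members, and 15 of them matched the symbol rule. Tested with every probe set of the table, 4 of the 15 passed for glucose by the limma test. The share of all probe sets passing in that fit is not given here, so the count cannot be judged against it. Among single-gene probe sets above the filter, in a separate fit, 8.12% passed. Probe sets 1430019_a_at and 1430020_x_at, which list Hnrnpa1 with other genes, gave -0.45 (adjusted p = 0.0474) and -0.49 (adjusted p = 0.0489) at 22.7 against 5.5 mM. Probe set 1451184_at, which lists Hnrnpa3, gave -0.60 (adjusted p = 0.0316). Of the probe sets shared by Snurf and Snrpn, 1435716_x_at gave 0.24 (adjusted p = 0.0413) and 1421063_s_at -0.71 (adjusted p = 0.124). Those of highest mean, 1415895_at (12.09) and 1415896_x_at (11.51), gave 0.0002 and 0.0015.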
